A study of Mus musculus with 21 samples.

Results

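The genes described here are 9 enzymes of hepatic amino acid and methyl group breakdown, Tat, Hpd, Hgd, Fah, Tdo2, Hal, Mat1a, Gnmt and Bhmt, out of 54532 genes in each deposited table. They were picked by name and by no threshold on a measured value, but with earlier results of these data known. All 9 were found. Levels came from RNA sequencing of 21 libraries of wild-type mouse cells in 7 groups, and the question the design poses is how far fibroblasts treated with small molecules approach hepatocytes. MEF (3 libraries) were embryonic fibroblasts in DMEM with 10% FBS. C6FAE (3 libraries) were MEF given CHIR99021 (20 µM, an inhibitor of GSK3), Forskolin (50 µM, which raises cAMP), 616452 (10 µM, a TGF-beta receptor inhibitor), EPZ004777 (5 µM, a DOT1L inhibitor) and AM580 (0.05 µM, a retinoic acid receptor agonist), with bFGF at 50 ng/ml. C6F(L) (3 libraries) were MEF put directly into a hepatocyte medium that held dexamethasone (1 µM, a glucocorticoid), nicotinamide (10 mM), FGF4 (10 ng/ml), HGF (20 ng/ml) and EGF (20 ng/ml). Its CHIR99021, 616452 and Forskolin were at the doses above for 4 days and afterwards at 3, 2 and 2 µM. C6FAE-C6F(L) (4 libraries) were MEF that went through C6FAE until day 4 and then through C6F(L), and are called the first 2-step protocol below. C6F5UE-C6F(L)V (3 libraries) differed from it by CH55 (1 µM, also a retinoic acid receptor agonist) and UNC0638 (0.05 µM, a G9a inhibitor) as substitutes for AM580, and by vitamin C (50 µg/ml) in the second step. It is called the second 2-step protocol. NSF-CiHeps (3 libraries) went through the same steps from neonatal skin fibroblasts. The reference, pHeps (2 libraries), were liver hepatocytes isolated and then cultured for 2 days, so they are not liver as it is in the animal. No collection day is labelled for induced cells. Whether replicate libraries stem from different cultures or animals is not stated either, so p-values measure only the spread between these libraries, which may be technical.

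Hepatocytes are the main site where amino acids that are not used for protein are broken down. Tyrosine is degraded in a chain in which Tat removes the amino group, Hpd makes homogentisate, Hgd opens its ring and Fah cleaves the last intermediate into fumarate and acetoacetate. Tdo2 takes the first step of tryptophan breakdown toward kynurenine, and Hal takes the first step of histidine breakdown. Mat1a makes S-adenosylmethionine, the methyl donor of the cell, Gnmt uses up its methyl group on glycine when supply is high, and Bhmt uses betaine to make methionine again from homocysteine. In adult liver Mat1a is the form used, while its relative Mat2a serves most other cells and growing liver. Tat and Tdo2 are textbook examples of liver genes induced by glucocorticoids.

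Promoter sequences are shown for Tdo2, which was high in pHeps and low in the second 2-step protocol, and for Gnmt and Bhmt, which were highest in the same group. They run from 250 bases before to 50 after the RefSeq start of the gene, on the gene's own strand, in RefSeq's GRCm38.p6. Capitals mark ACANNNTGT, the core of a glucocorticoid response element, and in Bhmt also CAAAGGTCA, part of a direct repeat of the kind bound by HNF4. The windows are chr3:81975679-81975978 for Tdo2, chr17:46729116-46729415 for Gnmt and chr13:93637709-93638008 for Bhmt, each on the minus strand.
Tdo2: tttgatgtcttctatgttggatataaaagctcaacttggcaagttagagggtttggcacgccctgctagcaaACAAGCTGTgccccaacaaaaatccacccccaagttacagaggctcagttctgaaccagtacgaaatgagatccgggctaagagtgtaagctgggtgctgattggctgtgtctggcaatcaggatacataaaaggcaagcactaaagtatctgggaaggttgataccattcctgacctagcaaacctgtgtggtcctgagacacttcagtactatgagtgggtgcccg
Gnmt: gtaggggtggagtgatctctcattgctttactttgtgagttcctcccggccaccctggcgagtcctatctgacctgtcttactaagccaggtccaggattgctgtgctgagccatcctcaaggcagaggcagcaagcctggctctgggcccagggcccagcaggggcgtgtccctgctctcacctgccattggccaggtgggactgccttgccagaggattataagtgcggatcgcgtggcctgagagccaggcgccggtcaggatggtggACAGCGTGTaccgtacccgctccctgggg
Bhmt: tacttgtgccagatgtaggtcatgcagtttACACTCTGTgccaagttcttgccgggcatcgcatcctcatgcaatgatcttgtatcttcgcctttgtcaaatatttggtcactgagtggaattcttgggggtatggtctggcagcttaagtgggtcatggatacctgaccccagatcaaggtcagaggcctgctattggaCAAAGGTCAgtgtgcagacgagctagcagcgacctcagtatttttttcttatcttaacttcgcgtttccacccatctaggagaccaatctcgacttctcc
A window was at hand for 8 of the 9 genes, with none for Mat1a, and the RefSeq starts of Tdo2, Fah and Bhmt lie well inside the genes as the deposited tables bound them, with those of Hpd and Gnmt inside by a few bases. ACANNNTGT was found in 4 of the 8 windows, those of Tdo2, Hal, Gnmt and Bhmt, against 6.85% of 32851 promoters of the same length. Its first base lay 178 bases before the start of Tdo2, 36 before that of Hal, 220 before that of Bhmt and 22 after that of Gnmt. CAAAGGTCA was found in the window of Bhmt, 50 bases before its start, and in 0.478% of promoters. Of the other 13 motifs searched on both strands, 3 were found. CCAAT lay in 6 of the 8 windows (37.4% of promoters), TATAAA in those of Hal, Hgd and Tdo2 (13.6%) and the forkhead form TGTTTGC in that of Tdo2 (5.07%). The letters of the full palindromic glucocorticoid response element (0.00913% of promoters), its arm TGTTCT (19.0%), the full palindromic HNF1 element (0.00913%), its arm GTTAAT (7.1%), CAAAGTCCA (0.475%), TTGCNNCAA (2.08%), TGACGTCA (1.79%), TGACG (20.8%), TGTTTAC (3.65%) and CTTTGATC (0.938%) were in none of the 8 windows. TGACG is part of TGACGTCA, so these overlap, as do the arms and their full elements. The motifs in capitals were chosen after the matches were seen, and a match is a run of letters and not a measured site.

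Library totals ran from 9.18 M to 12.32 M counts. Summed levels of 10 hepatocyte markers were 1.97 to 3.17 CPM (counts scaled to library depth by the trimmed mean of M values over the 21 libraries) in MEF, 1.81 to 3.39 in C6FAE and 11.5 to 44.7 in C6F(L). They were 494 to 1707 in the first 2-step protocol, 384 to 2459.6 in NSF-CiHeps, 21709.8 to 28541 in the second 2-step protocol and 26386 to 27709 in pHeps. Alb was at 0 in 2 of 3 MEF libraries and Hnf4a at 0 in all MEF and C6F(L) libraries. In the first 2-step protocol, 10 of 10 keratinocyte markers were detected at a summed 8793 to 16212 CPM, against at most 323 elsewhere. Macrophage markers summed to 4028 to 4958 CPM in MEF and 1040 to 1313 in pHeps, with 9.62 to 132 elsewhere. Replicate 4 of the first 2-step protocol stood apart from the other 3, with 3.42% of counts in cytosolic ribosomal protein genes against 7.21% to 8.80%, and with fibroblast markers at a summed 4321 CPM against 474 to 1458. In bulk RNA, fewer cells of a type and less RNA per cell cannot be told apart.

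**Figure D1:**
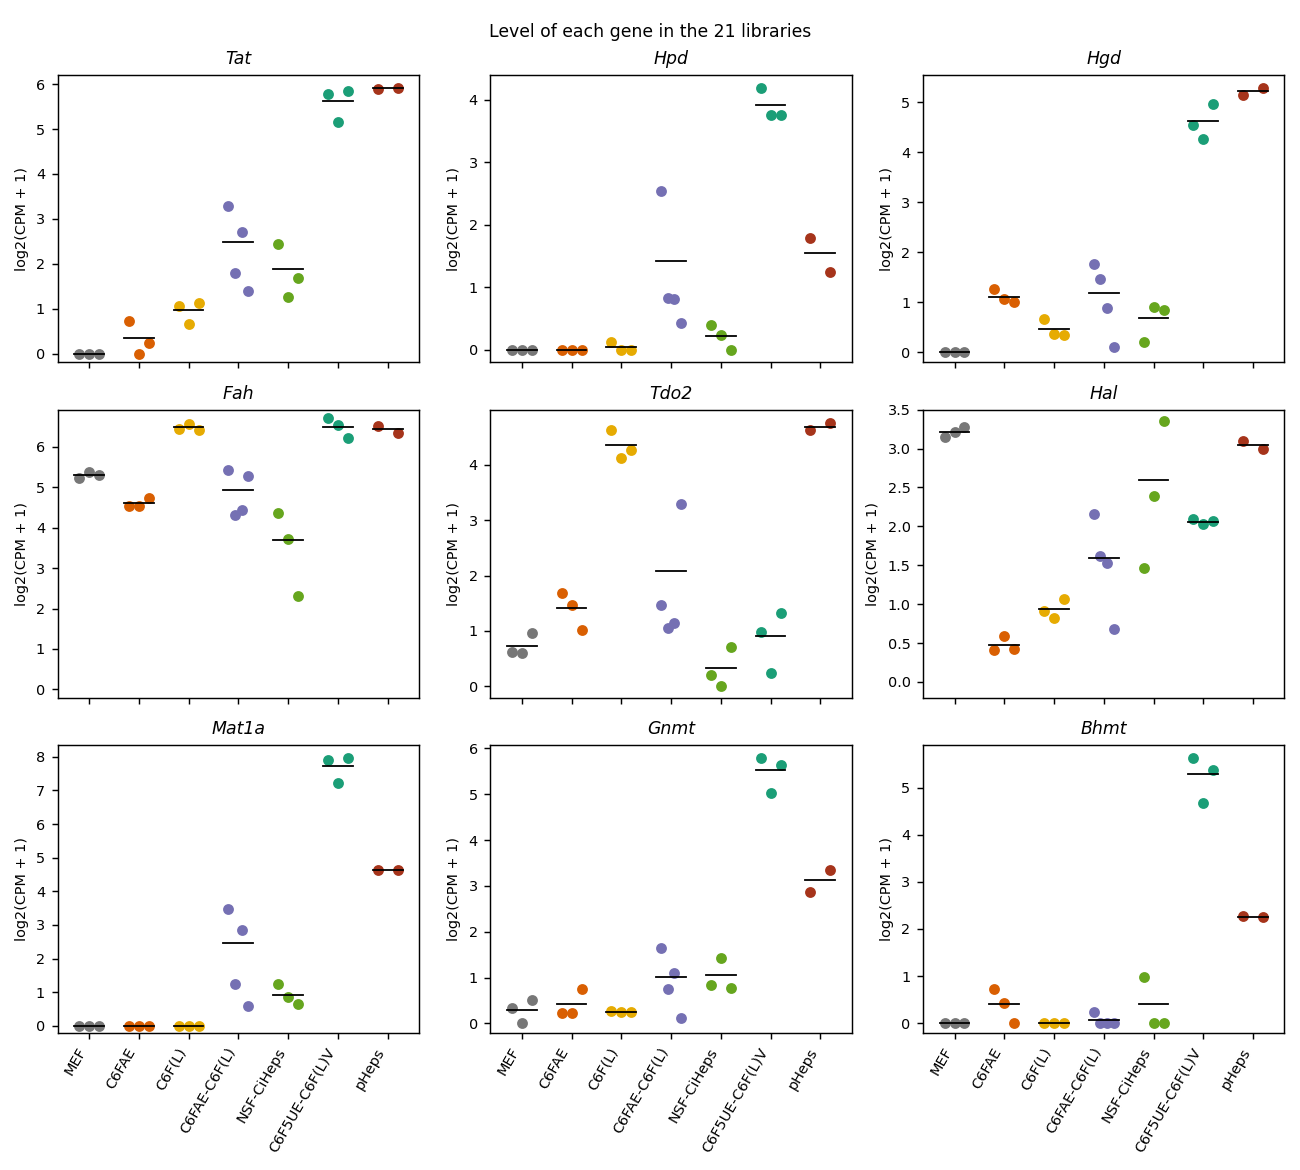
Level of each of the 9 genes as log2(CPM + 1) in every library (1 point per library, with the group mean as a bar), by group along the x axis. Mat1a, Gnmt, Bhmt and Hpd are highest in C6F5UE-C6F(L)V, Tdo2 is high in C6F(L) and pHeps and low in C6F5UE-C6F(L)V, and Hal is highest in MEF by group mean.

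The tyrosine chain begins with Tat (ENSMUSG00000001670, chr8:109990437-109999803, plus strand, GRCm38 as in all positions below), the tyrosine aminotransferase. Tat had 0 counts in all 3 MEF libraries, 0.658, 0 and 0.170 CPM in C6FAE, and 1.08, 0.571 and 1.19 CPM in C6F(L). It stood at 8.81, 2.45, 5.55 and 1.63 CPM in the 4 libraries of the first 2-step protocol and at 4.39, 1.41 and 2.23 CPM in NSF-CiHeps. The second 2-step protocol held 54.3, 34.6 and 56.5 CPM and pHeps 58.8 and 59.5 CPM. The second protocol and pHeps were thus far above the other 5 groups, and between themselves the libraries of pHeps lay just above the 3 others. That difference, a log2 fold change of -0.28 (SE 0.17), did not pass edgeR's quasi-likelihood test (adjusted p = 0.187), which does not show that the levels are equal. Against MEF, the ratio of count shares was at least 10.8-fold in C6F(L), 55.1-fold in the first 2-step protocol, 640-fold in the second and 706-fold in pHeps, taking 3 counts in all of MEF as the floor. All 4 differences passed (edgeR adjusted p = 0.0129, 4.4e-04, 9.8e-08 and 1.1e-07), a call being an adjusted p below 0.05 by Benjamini-Hochberg and a log2 fold change of at least 1 in size. Among the 13 libraries of MEF and the first protocol, Tat passed the filter on low counts only through the first 2-step protocol, so its calls for that group are a description. Adding the C6FAE step before C6F(L) was accompanied by a Tat level higher by 2.29 on the log2 scale (SE 0.76, edgeR adjusted p = 0.0264). That call was lost without any 1 of the C6F(L) libraries or without replicate 1 of the first 2-step protocol (adjusted p 0.0632 to 0.0998). Tat in the second protocol exceeded that in the first by 3.44 (SE 0.50, edgeR adjusted p = 2.0e-05), and in NSF-CiHeps it was lower than in the second protocol by a log2 fold change of -4.25 (SE 0.59, edgeR adjusted p = 2.2e-05).

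Hpd (ENSMUSG00000029445, chr5:123171807-123182727, minus strand), 4-hydroxyphenylpyruvate dioxygenase, followed another order. It had 0 counts in MEF and C6FAE and 1 count in all of C6F(L). In the first 2-step protocol it was at 4.81, 0.785, 0.753 and 0.344 CPM, in NSF-CiHeps at 0.319, 0.176 and 0 CPM, and in pHeps at 2.48 and 1.37 CPM. The second 2-step protocol held 17.3, 12.5 and 12.6 CPM, each above every other library of the series. Its log2 fold change over pHeps was 2.89 (SE 0.35, edgeR adjusted p = 1.4e-05). NSF-CiHeps were below pHeps (log2 fold change -3.52, SE 1.08, edgeR adjusted p = 0.0138), a call lost without replicate 1 of pHeps (adjusted p = 0.086). That value ran from -4.36 without replicate 1 of NSF-CiHeps to -2.92 without its replicate 3. The first 2-step protocol was not called against pHeps (log2 fold change -0.23, SE 0.83, edgeR adjusted p = 0.828), and its replicate 1 carried most of its counts. Without that library the log2 fold change was -1.65 and passed the test (edgeR adjusted p = 0.0339). Hpd did not pass the filter on low counts among the 13 libraries of MEF and the first protocol. There its count share was at least 20.2 times that of MEF in the first 2-step protocol, or at least 7.26 times without replicate 1.

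Hgd (ENSMUSG00000022821, chr16:37580153-37632020, plus strand), homogentisate dioxygenase, had 0 counts in MEF. C6FAE held 1.40, 1.10 and 1.02 CPM, C6F(L) 0.590, 0.286 and 0.276 CPM, and NSF-CiHeps 0.160, 0.880 and 0.795 CPM. Levels in the first 2-step protocol ranged widely, at 2.40, 1.77, 0.847 and 0.0859 CPM. The second held 22.4, 18.4 and 30.3 CPM and pHeps 34.7 and 38.2 CPM, so these groups did not overlap with each other or with the other 5. Between the last pair the log2 fold change was -0.61 (SE 0.19, edgeR adjusted p = 0.0149), which is below the fold that counts as a call. Hgd was above MEF in C6FAE already, by at least 14.4-fold in count share (edgeR adjusted p = 0.00374), a description since it passed the filter only through C6FAE. It rose in the first 2-step protocol by at least 15.0-fold (edgeR adjusted p = 0.00213). The rise in C6F(L), at least 4.33-fold (edgeR adjusted p = 0.038), was lost without any 1 of the 6 libraries compared (adjusted p 0.0542 to 0.0909). Hgd in the first 2-step protocol did not differ from C6FAE beyond the spread between libraries (log2 fold change 0.14, SE 0.69, edgeR adjusted p = 0.877).

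Fah (ENSMUSG00000030630, chr7:84585159-84606722, minus strand), fumarylacetoacetate hydrolase, was the only 1 of the 9 genes at over 10 CPM in every MEF library. MEF held 36.7, 40.4 and 38.4 CPM, C6FAE 22.4, 22.3 and 25.5 CPM, and C6F(L) 86.3, 94.4 and 84.4 CPM. C6FAE-C6F(L) had 41.7, 18.8, 20.6 and 37.5 CPM, and NSF-CiHeps 19.6, 12.2 and 3.98 CPM. The second protocol held 103, 92.0 and 73.2 CPM and pHeps 90.7 and 80.4 CPM. C6F(L), the second protocol and pHeps therefore overlapped at the top, although hepatocyte markers in C6F(L) were low. Fah rose in C6F(L) over MEF by 1.21 on the log2 scale (SE 0.25, edgeR adjusted p = 0.00233) and was lower in the first 2-step protocol than in C6F(L) by a log2 fold change of -1.55 (SE 0.23, edgeR adjusted p = 1.4e-04). The second protocol differed from pHeps by 0.08 (SE 0.13, edgeR adjusted p = 0.64), a direction that turned without its replicate 1 or without replicate 2 of pHeps (-0.031 and -0.0098). The rise of pHeps over MEF (1.21, SE 0.39, edgeR adjusted p = 0.0107) was lost without replicate 1 of pHeps (adjusted p = 0.0612). Per kilobase of gene length, mean levels in pHeps ran from 38.6 CPM per kb for Fah and 24.6 for Tat to 13.9 for Hgd and 0.903 for Hpd. In the second protocol they were 40.3 for Fah, 20.1 for Tat, 9.06 for Hgd and 6.64 for Hpd, so Hpd was the lowest of the chain in both groups.

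Tdo2 (ENSMUSG00000028011, chr3:81957090-81976202, minus strand), tryptophan 2,3-dioxygenase, was high in pHeps and in C6F(L) and low in the second 2-step protocol. MEF held 0.536, 0.523 and 0.944 CPM, C6FAE 2.22, 1.78 and 1.02 CPM, and C6F(L) 23.7, 16.5 and 18.3 CPM. The first 2-step protocol had 1.78, 1.08 and 1.22 CPM in replicates 1 to 3 and 8.76 CPM in replicate 4. The second protocol held 0.976, 0.181 and 1.496 CPM, NSF-CiHeps 0.160, 0 and 0.636 CPM, and pHeps 23.5 and 26.0 CPM. C6F(L) and pHeps overlapped, and no library of another group reached them. The rise in C6F(L) over MEF was 4.85 on the log2 scale (SE 0.78, edgeR adjusted p = 3.8e-04). The second protocol was lower than pHeps by a log2 fold change of -4.80 (SE 0.41, edgeR adjusted p = 6.2e-07) and NSF-CiHeps by -6.52 (SE 0.93, edgeR adjusted p = 1.4e-05). Without replicate 3 of NSF-CiHeps only 2 counts remained in that group, against 532 in pHeps, and the ratio of count shares went from 87.8 to 289.8 (95% interval 79.8 to 2399.0). Against MEF, the second protocol was not called (0.46, SE 0.89, edgeR adjusted p = 0.658), and this value turned to -0.087 without its replicate 3.

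The first 2-step protocol had less Tdo2 than C6F(L), with a log2 fold change of -2.56 (SE 0.60, edgeR adjusted p = 0.00301), and -3.81 without its replicate 4 (adjusted p = 3.4e-07). Its rise over MEF (2.30, SE 0.75, edgeR adjusted p = 0.0179) fell to 1.05 without replicate 4 (adjusted p = 0.0319) and was lost without replicate 1 or 2 of MEF (adjusted p = 0.0618 in both). The second protocol was below the first by -1.82 (SE 0.75, edgeR adjusted p = 0.0411). That call rested on replicate 4, without which the value was -0.57 (adjusted p = 0.402), and it was also lost without replicate 1 or 2 of the second protocol (adjusted p = 0.0822 and 0.154). Fibroblast markers were highest in the same replicate 4 among the 4 libraries, and Col1a1, a fibroblast collagen, was at 1157.8 CPM there against 111 to 246 CPM. In C6F(L), where only the highest Tdo2 library overlapped pHeps, 10 of 10 fibroblast markers were detected at a summed 28851 to 32544 CPM. Alb was at 0.295 to 3.05 CPM there. The same markers summed to 38238 to 38778 CPM in MEF and to 10479 to 10954.5 CPM in C6FAE. Mean Tdo2 was only 0.668 CPM in MEF and 1.67 CPM in C6FAE. The part of fibroblast-like cells in these Tdo2 levels was not tested. Fkbp5, a gene that glucocorticoids induce, was at 373 to 392 CPM in C6F(L), 816 to 911 CPM in the second protocol and 67.1 to 67.4 CPM in pHeps. The 8 glucocorticoid response genes summed to 2312.5 to 2490.4 CPM in C6F(L), 2639.6 to 3369.7 CPM in the second protocol and 913 to 925 CPM in pHeps. Thus Tdo2 was low in the second protocol while the glucocorticoid response genes were at their highest range of the 7 groups, and a role of dexamethasone in either level was not tested.

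Hal (ENSMUSG00000020017, chr10:93488768-93519304, plus strand), histidine ammonia-lyase, did not exceed 10 CPM in any library. MEF held 7.86, 8.27 and 8.67 CPM, C6FAE 0.329, 0.509 and 0.340 CPM, and C6F(L) 0.885, 0.762 and 1.10 CPM. C6FAE-C6F(L) had 3.47, 2.06, 1.88 and 0.601 CPM and the second 3.25, 3.08 and 3.19 CPM. NSF-CiHeps held 1.76, 4.23 and 9.22 CPM and pHeps 7.52 and 6.94 CPM. Hal was thus about as high in the starting fibroblasts as in hepatocytes (log2 fold change of pHeps over MEF -0.13, SE 0.53, edgeR adjusted p = 0.851), and every library of the treated MEF lay below both. It fell in C6FAE by 4.36 on the log2 scale (SE 0.52, edgeR adjusted p = 2.5e-05), in C6F(L) by 3.14 (SE 0.47, edgeR adjusted p = 2.4e-04) and in the first 2-step protocol by 2.01 (SE 0.40, edgeR adjusted p = 8.1e-04), each against MEF. From C6FAE to the first 2-step protocol it rose by 2.35 (SE 0.51, edgeR adjusted p = 0.00172). The second protocol was lower than pHeps (log2 fold change -1.17, SE 0.34, edgeR adjusted p = 0.0101) and lower than MEF (-1.30, SE 0.49, edgeR adjusted p = 0.0237). The first of these calls was lost without replicate 1 of pHeps (adjusted p = 0.0561). The other was lost without replicate 3 of MEF or without any 1 library of the second protocol (adjusted p 0.0508 to 0.0556).

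Macrophage markers moved with Hal in part. C1qa, a complement gene of macrophages, was at 291 to 375 CPM in MEF and 101 to 152 CPM in pHeps. It was at 0 in all libraries of C6FAE, of both 2-step protocols and of NSF-CiHeps, while replicate 3 of NSF-CiHeps had the highest Hal level of the series. The part of macrophages in the Hal level of MEF was not tested. Amdhd1, which acts later in histidine breakdown and is the next of the listed genes to Hal on chromosome 10 (chr10:93523338-93540033, minus strand), fell with it in the first treatments. Its 48 counts in MEF compared with 3 in C6FAE, a ratio of count shares of 15.5 (95% interval 5.01 to 78.0), and with 1 in C6F(L), a ratio of 44.4 (7.59 to 1788.6). In the second protocol Amdhd1 was instead above pHeps, at 21.8, 19.3 and 22.5 CPM against 10.9 and 11.4 CPM, with a log2 fold change of 0.94 (SE 0.19, edgeR adjusted p = 0.00102) that is below the fold of a call.

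Mat1a, Gnmt and Bhmt were each higher in the second 2-step protocol than in pHeps. Of 17 other listed methyl group genes 2 were higher there and 7 lower, with a median log2 fold change of -0.29. Over all genes tested in this comparison, 18.4% were called higher and 14.7% lower. Mat1a (ENSMUSG00000037798, chr14:41105035-41124412, plus strand), the liver form of methionine adenosyltransferase, had 0 counts in all 9 libraries of MEF, C6FAE and C6F(L). C6FAE-C6F(L) held 10.1, 1.37, 6.21 and 0.515 CPM, NSF-CiHeps 1.36, 0.792 and 0.557 CPM, and pHeps 23.9 and 23.6 CPM. The second protocol held 239, 147 and 248.7 CPM, with its lowest library far above both of pHeps. This was a log2 fold change of 3.16 over pHeps (SE 0.21, edgeR adjusted p = 4.9e-08). Against MEF the count share was at least 54.2-fold higher in the first 2-step protocol, 284-fold in pHeps (edgeR adjusted p = 4.8e-05) and 2797-fold in the second (edgeR adjusted p = 1.5e-06). In the first protocol replicate 1 carried 113 of its 199 counts, and without it the ratio of count shares to MEF was at least 31.2-fold. Mat1a passed the low-count filter of the 13 libraries only through replicates 1 to 3 of this group, and without any 1 of these it was not tested, so no p is given for it there. Bounds against MEF also shrink when 1 MEF library is left out, since the floor is then set against fewer reads, for Mat1a in the first 2-step protocol to between 35.8-fold and 36.8-fold. NSF-CiHeps were below the second protocol by a log2 fold change of -7.94 (SE 0.85, edgeR adjusted p = 1.1e-05) and below pHeps by -4.77 (SE 0.84, edgeR adjusted p = 4.6e-04).

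Gnmt (ENSMUSG00000002769, chr17:46725664-46729168, minus strand), glycine N-methyltransferase, was near the limit of detection in MEF, C6FAE and C6F(L), at 0 to 0.679 CPM. It was at 2.14, 0.687, 1.13 and 0.0859 CPM in the first 2-step protocol and at 0.799, 1.67 and 0.716 CPM in NSF-CiHeps, and these groups overlapped. The second protocol held 54.4, 31.7 and 48.7 CPM and pHeps 6.29 and 9.13 CPM. The second protocol exceeded pHeps by 2.55 on the log2 scale (SE 0.25, edgeR adjusted p = 2.2e-06). It exceeded the first by 5.52 (SE 0.57, edgeR adjusted p = 2.1e-07), or by 6.19 without replicate 1 of the first. Gnmt did not pass the filter among the 13 libraries of MEF and the first protocol, so it was not tested there. Against MEF, both the second protocol (7.60, SE 0.76, edgeR adjusted p = 8.2e-08) and pHeps (5.05, SE 0.78, edgeR adjusted p = 1.7e-05) were higher. MEF held 8 Gnmt counts, and without its replicate 3 these values were 8.36 and 5.80, while the first was 7.02 without replicate 2.

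Bhmt (ENSMUSG00000074768, chr13:93616675-93637961, minus strand), betaine-homocysteine methyltransferase, had 0 counts in MEF and C6F(L). It was at 0.658, 0.339 and 0 CPM in C6FAE, at 0.178 CPM in 1 library of the first 2-step protocol (2 counts) with 0 in the other 3, and at 0.958 CPM in replicate 1 of NSF-CiHeps with 0 in the other 2. The second protocol held 48.7, 24.5 and 40.8 CPM and pHeps 3.81 and 3.74 CPM. The groups did not overlap, and the second protocol exceeded pHeps by 3.34 on the log2 scale (SE 0.30, edgeR adjusted p = 8.6e-07). Between the protocols the ratio of count shares was 929 (95% interval 257 to 7678), on 1277 against 2 counts (edgeR adjusted p = 2.0e-06). Without replicate 1 of the first protocol, which held both counts, it was at least 465-fold. NSF-CiHeps were below pHeps (log2 fold change -3.56, SE 0.95, edgeR adjusted p = 0.00592), but DESeq2 gave an adjusted p of 0.185 and a fit of the 5 libraries alone 0.0581. All 12 counts of NSF-CiHeps were in replicate 1, without which pHeps were at least 29.5-fold higher in count share, and without replicate 3 the log2 fold change was -2.94. Per kilobase of gene length, mean levels in the second protocol were 61.01 CPM per kb for Mat1a, 37.3 for Gnmt and 6.60 for Bhmt, against 6.85, 6.39 and 0.656 in pHeps, with Bhmt the lowest in both.

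The relatives of these genes behaved otherwise. Mat2a, the adenosyltransferase of most other cells, was detected in every library, at 174, 164 and 167 CPM in MEF, 259.8, 244 and 313 CPM in the second protocol, 382, 356 and 374 CPM in NSF-CiHeps and 344 and 329.6 CPM in pHeps. Its difference between the second protocol and pHeps was -0.29 (SE 0.11, edgeR adjusted p = 0.0396) and that of Mat2b, the regulatory subunit, -0.23 (SE 0.10, edgeR adjusted p = 0.0549). Per kilobase, mean Mat2a in the second protocol was 60.8 CPM per kb beside 61.01 for Mat1a, whereas in pHeps it was 75.0 beside 6.85. Bhmt2, a paralog that uses another methyl donor, lies beside Bhmt (chr13:93655720-93674302, minus strand), and Dmgdh, which removes a further methyl group from the product of Bhmt, lies next to Bhmt2 (chr13:93674433-93752833, plus strand). Bhmt2 was at 7.62 and 6.21 CPM in pHeps, 1.48, 2.38 and 1.36 CPM in C6FAE, 0.599 CPM in 1 library of the second protocol, and 0 in every other library. Dmgdh was at 11.5 CPM in both pHeps libraries, at 6.001, 6.45 and 3.99 CPM in C6FAE, and at 0, 0.453 and 0.299 CPM in the second protocol. The neighbours were therefore both low in the group where Bhmt was highest, with log2 fold changes against pHeps of -5.14 for Bhmt2 (SE 0.84, edgeR adjusted p = 1.9e-04) and -5.50 for Dmgdh (SE 0.59, edgeR adjusted p = 4.8e-06). Both genes passed the filter on low counts in that fit only through pHeps, so these calls are a description. C6FAE was called higher than MEF for Bhmt2 (at least 21.3-fold, edgeR adjusted p = 0.00196) and for Dmgdh (ratio 101, 95% interval 27.6 to 839, edgeR adjusted p = 7.9e-05). Bhmt2 passed the filter on low counts in that fit only through C6FAE, so its call is a description. The call of Dmgdh, which had few counts in MEF, is likewise given as a description. How reads shared by paralogs were counted is not given in the sources used here, so the split between Bhmt and Bhmt2 is uncertain to that extent.

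**Figure D2:**
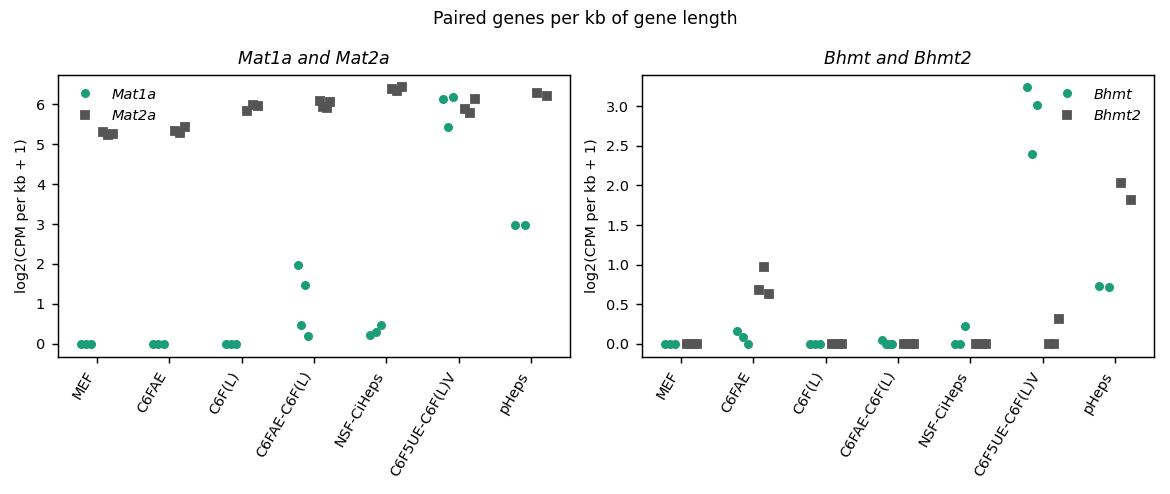
Levels per kilobase of gene length, as log2(CPM per kb + 1), of Mat1a and Mat2a and of Bhmt and Bhmt2 in every library, by group along the x axis (circles and squares mark the genes). By group mean, Mat1a reaches Mat2a in C6F5UE-C6F(L)V only (61.01 and 60.8 CPM per kb), though not in every library of that group. Bhmt exceeds Bhmt2 in that group while Bhmt2 exceeds Bhmt in pHeps.

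How the second 2-step protocol compared with cultured hepatocytes depended on the gene. Of the 9 genes, 4 were higher than in pHeps (Hpd, Mat1a, Gnmt and Bhmt) and 2 were lower (Tdo2 and Hal), where 18.4% and 14.7% of the 15531 genes tested were called higher and lower. Tat, Hgd and Fah were not called. The median log2 fold change of the 9 was 0.08 beside 0.01 over all genes tested. Without replicate 1 of pHeps the number lower was 1, as Hal was lost. Of 40 other genes of the same pathways, 5 were higher and 16 lower, with a median of -0.41. The largest rises were those of Chdh, which makes betaine (2.90, SE 0.25, edgeR adjusted p = 6.5e-07), Prodh2, a hydroxyproline dehydrogenase (1.65, SE 0.37, edgeR adjusted p = 0.00202), and Sardh, which removes the methyl group of sarcosine (1.55, SE 0.22, edgeR adjusted p = 6.4e-05). The largest falls were those of Haao, with 0 counts and a count share at least 48.2-fold lower, Agxt, with 2 counts against 81 and a share 56.8-fold lower (95% interval 15.2 to 477), and Dmgdh. Haao, Agxt and Dmgdh passed the filter on low counts only through pHeps, so their calls are a description. Haao acts in tryptophan breakdown, and 4 of 7 listed genes of that pathway fell (Kmo, Kynu, Haao and Ido2), named after their values were seen, with 1 higher (Afmid). Kmo held 2.20, 1.45 and 1.20 CPM in the second protocol against 24.1 and 27.7 CPM in pHeps (log2 fold change -3.96, SE 0.28, edgeR adjusted p = 1.0e-07).

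**Figure D3:**
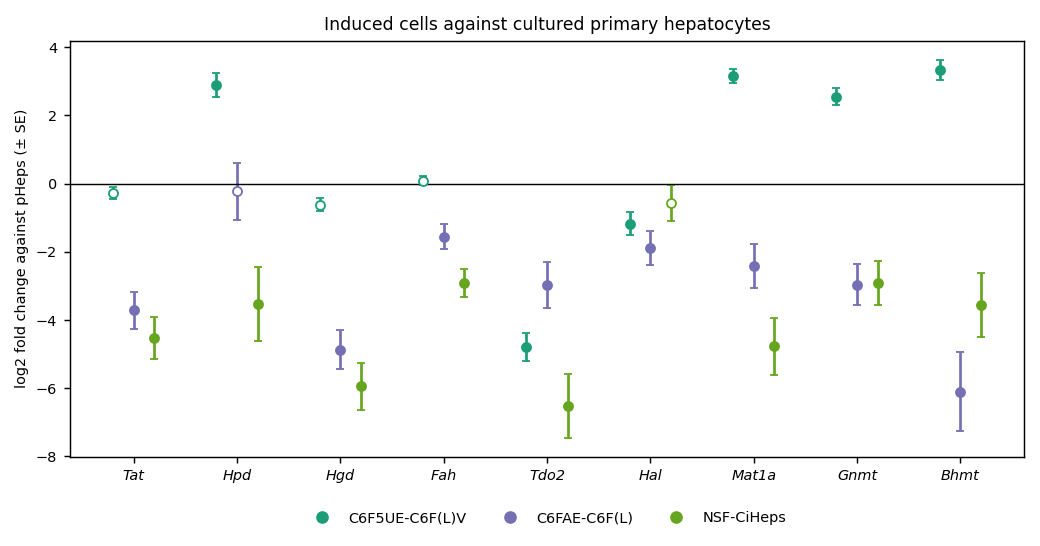
Log2 fold change against pHeps (y axis, points with SE bars) of each of the 9 genes (x axis) in 3 kinds of induced cell, with filled points for calls and open points for genes not called. In C6F5UE-C6F(L)V, 4 genes lie above and 2 below pHeps among the calls, while no call lies above pHeps in C6FAE-C6F(L) or NSF-CiHeps.

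Within the first protocol's table, the single cocktails were compared with MEF. Hpd, Gnmt and Bhmt did not pass the filter there. Mat1a and Tat passed only through the first 2-step protocol and Hgd only through C6FAE, so their calls for those groups were favoured by the filter, and the counts that hold them are given with nothing read from them. In C6FAE, 1 of the 6 genes that passed was higher (Hgd) and 1 lower (Hal), where 15.6% and 14.7% of the 16535 genes tested were called higher and lower. Without replicate 2 of C6FAE, or by DESeq2, Tat was called too, which made 2 higher. In C6F(L), 4 were higher (Tat, Tdo2, Fah and Hgd) and 1 lower (Hal), against 10.6% and 12.4% of all genes. Without any 1 of the 6 libraries compared the number higher was 3, as Hgd was lost. In the first 2-step protocol, Tdo2 and Hgd were higher than in MEF and Hal lower, with Tat and Mat1a also past the threshold, where 18.2% and 19.3% of all genes were called higher and lower. In a fit of only the groups compared, 2 were higher than MEF in each of C6F(L) and the first 2-step protocol. For C6F(L), Tat and Hgd had too few libraries above the cut to pass the filter. For the first 2-step protocol this held for Hgd alone among the genes called, so another call was lost in the test itself.

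Other contrasts set the first 2-step protocol against each of its steps alone. Time in culture is not labelled and may differ too, so they do not isolate a step. Relative to C6FAE, Hal was higher, with Tat and Mat1a also past the threshold, and 0 of the 6 genes were lower, where 16.1% and 17.6% of all genes were called higher and lower, and 0 were lower at an unadjusted p below 0.05 or by DESeq2. Relative to C6F(L), 2 were lower (Fah and Tdo2), against 16.5% of all genes, and the 2 past the threshold upward, against 15.5%, were Tat and Mat1a. Leaving out each library in turn moved these 2 to between 0, without replicate 1 of the first 2-step protocol, and 4, without its replicate 4. In the latter setting Hgd (log2 fold change 2.12, edgeR adjusted p = 0.00475) and Hal (1.44, edgeR adjusted p = 0.00165) were added. Of the 40 other pathway genes, 29 passed the filter, and 4 to 7 of them were higher and 4 to 5 lower in these 5 comparisons, with medians from -0.14 to 0.25. Without replicate 4 of the first 2-step protocol, 8 were lower than in MEF and 8 lower than in C6F(L), instead of 5 and 4. Against MEF, the largest rises in C6F(L) were Cbs (2.96, SE 0.53, edgeR adjusted p = 8.3e-04), Chdh (2.65, SE 0.52, edgeR adjusted p = 0.0016) and Gldc (2.25, SE 0.52, edgeR adjusted p = 0.00441), which act in transsulfuration, betaine supply and glycine cleavage. The largest falls there were Amdhd1, Aass, of lysine breakdown (-1.94, SE 0.40, edgeR adjusted p = 0.00204), and Sardh (-1.63, SE 0.41, edgeR adjusted p = 0.00695).

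Across the tables, where table and group cannot be told apart, pHeps were above MEF for 8 of the 9 genes and below for 0, against 24.4% and 27.2% of the 18605 genes tested, with Hal not called. No gene was lower at an unadjusted p below 0.05 or by DESeq2 (0 in both). The second 2-step protocol was above MEF for 7 genes and below for 1 (Hal), against 25.7% and 26.4%, with Tdo2 not called. The 1 lower became 0 without replicate 3 of MEF or without any 1 library of the second protocol. Compared with the first 2-step protocol it was higher for 7 genes and lower for 1 (Tdo2), against 19.7% and 22.8%, with Hal not called, and lower for 0 without replicate 4 of the first or replicate 1 or 2 of the second. Per gene, the rises over the first protocol ran from 1.64 for Fah (SE 0.33, edgeR adjusted p = 3.2e-04) to 5.59 for Mat1a (SE 0.64, edgeR adjusted p = 9.6e-06), with Bhmt higher still. Without replicate 1 of the first protocol the value for Mat1a was 6.34. Of the 40 other genes, 34 were higher and 3 lower in pHeps than in MEF. Large rises were those of Acmsd, of the tryptophan pathway (at least 422-fold), and Bhmt2 (at least 82.3-fold), each with 0 counts in MEF. Mtr (-1.67) and Sardh (-1.42) fell, both with edgeR adjusted p below 0.05. Between the protocols, 28 of the 40 were higher in the second and 0 lower, with 3 lower at an unadjusted p below 0.05 and 0 by DESeq2. The 0 became 1 without replicate 4 of the first or without replicate 2 or 3 of the second.

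The 2 other kinds of induced cell were low beside pHeps. The first 2-step protocol was below pHeps for 8 of the 9 genes (Hpd was not called) and above for 0, against 20.8% lower and 26.1% higher, with a median of -2.96 beside 0.16 over all genes tested. NSF-CiHeps were also below pHeps for 8 genes (Hal was not called) and above for 0, against 18.1% lower and 17.4% higher, with a median of -3.56. In both comparisons 0 genes were higher at an unadjusted p below 0.05 or by DESeq2. Of the 40 other genes, 30 were lower and 2 higher in the first protocol, and 28 were lower and 0 higher in NSF-CiHeps (2 at an unadjusted p below 0.05 and 0 by DESeq2). Without replicate 2 of pHeps 1 was higher in the first protocol, and 1 was higher in NSF-CiHeps without either pHeps library or without replicate 3 of NSF-CiHeps. Both comparisons share the pHeps libraries.

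The skin-derived cells went through the same steps as the second 2-step protocol, but the groups are in separate tables, so the source of the fibroblasts and the table cannot be told apart. Mitochondrial transcripts took 2.34% to 2.69% of counts in NSF-CiHeps and 0.441% to 0.953% in the second protocol. NSF-CiHeps were lower for 7 of the 9 genes and higher for 0 (0 at an unadjusted p below 0.05 and 0 by DESeq2), against 16.2% lower and 12.3% higher, with Tdo2 and Hal not called. The falls ran from -2.99 for Fah (SE 0.39, edgeR adjusted p = 6.1e-06) to -7.94 for Mat1a. Hepatocyte markers were lower as well, with Alb at 432, 442 and 55.3 CPM against 7262 to 11334 CPM, but Hnf4a, a regulator of hepatocyte genes, was at 122 to 185 CPM in NSF-CiHeps and 144 to 177 CPM in the second protocol (log2 fold change -0.24, SE 0.31, edgeR adjusted p = 0.552). Of the 40 other genes, 27 were lower and 0 higher (3 at an unadjusted p below 0.05 and 0 by DESeq2). The largest falls were Kynu (147 counts against 1, ratio 173, 95% interval 30.6 to 6877), Ftcd (-6.30, SE 0.55, edgeR adjusted p = 8.9e-08) and Ido1 (-5.82, SE 0.99, edgeR adjusted p = 1.5e-04).

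The 4 libraries of the first 2-step protocol differed among themselves in a way the group means hide. Replicate 1 was the highest of the 4 for 8 of the 9 genes. Replicate 4 was the lowest for 6 genes (Tat, Hpd, Hgd, Hal, Mat1a and Gnmt) and the highest for Tdo2. It was at the same time the library with the most Alb, at 622 CPM against 456, 123 and 235 CPM in replicates 1 to 3, and its Hnf4a lay within the range of the others, at 54.0 CPM against 68.9, 26.8 and 28.9 CPM. Mat1a therefore ran from 10.1 to 0.515 CPM between the libraries with the most Hnf4a and the most Alb. The 10 hepatocyte markers together, Alb among them, were instead highest in replicate 1. They summed to 1707 CPM there, against 494, 636 and 979 CPM in replicates 2 to 4. Alb made up 622 of the 979 CPM in replicate 4 and 456 of the 1707 CPM in replicate 1. In the second protocol, replicate 2 was the lowest of 3 for 8 of the 9 genes, although its values stayed above every pHeps library for Mat1a, Gnmt, Bhmt and Hpd. The replicates carry no order, and what sets these libraries apart was not tested.

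**Figure D4:**
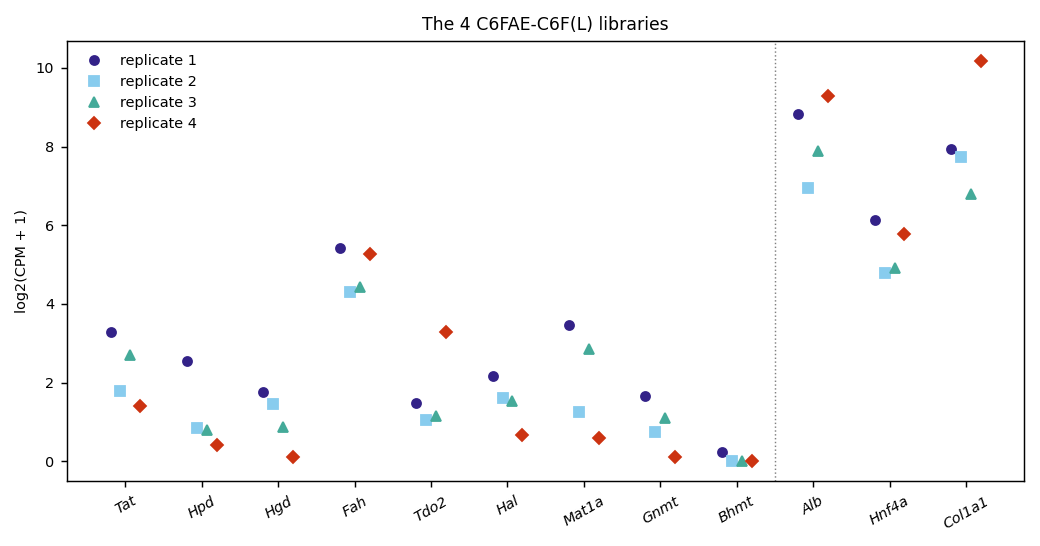
Level as log2(CPM + 1) of the 9 genes and of Alb, Hnf4a and Col1a1 (x axis) in the 4 libraries of C6FAE-C6F(L), with a marker for each replicate. Replicate 1 is highest for 8 of the 9 genes, and replicate 4 is lowest for 6 of them while it is highest for Tdo2, Alb and Col1a1.

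The genes most like each of 8 of the 9 were taken by Pearson's r over the 7 group means of log2(CPM + 1), among the 12919 genes that reached 10 CPM in a group mean. Hal never reached that level. These r values describe 7 points that share libraries and protocols and carry no test. Gnmt was most like Hrg, a plasma glycoprotein gene (r = 0.998), Mat1a most like F10, a coagulation factor gene (0.991), and Tat most like Serpina3k, a serpin gene (0.990). Hgd was most like Utp11 (0.992), Bhmt most like Dguok (0.995) and Hpd most like Akr1d1, which acts in bile acid synthesis (0.987). Since r takes no account of scale, a high value does not mean a like range. Group means of Utp11 ran from 39.4 CPM in MEF to 68.0 CPM in pHeps. Those of Dguok ran from 20.5 CPM in the first 2-step protocol to 52.3 CPM in the second, while Hgd and Bhmt were at 0 in MEF. Fah was most like Rnft1 (0.968) and Tdo2 most like Steap2 (0.942), the lowest of the 8. The next in likeness were F2 and Slc38a3 for Tat, Hao1 and Rccd1 for Hgd, Abcb11 and Acnat1 for Mat1a, and Cyp2a12 and a predicted gene for Gnmt. They were H2-M9 and Mmp8 for Tdo2, Oplah and Serac1 for Fah, Fhad1 and Rsad1 for Hpd, and Ggnbp1 and Gtpbp2 for Bhmt.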

How the data were processed

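RNA was measured by poly-A sequencing in 21 libraries. Per the submitters' processing notes, reads were aligned with HISAT2 to GRCm38 (mm10). How reads were counted (tool, strand, shared reads) is not given in the sources used here. The deposited gene counts, made by the authors and not normalized, were used for every result. The deposited FPKM values, normalized by the authors to length and depth, served only to check columns: 13 of the 16 tracked the counts with their own label best, while the 3 from MEF each tracked a different MEF replicate.

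Counts were fitted with edgeR 4.0.16 in R 4.3.3 (TMM scaling, quasi-likelihood test, Benjamini-Hochberg adjustment over all genes kept at a minimum count of 10 and a minimum total of 15). The 13 libraries of MEF and of the C6FAE and C6F(L) treatments shared 1 fit, C6F5UE-C6F(L)V and pHeps another, and comparisons across tables used all 21 libraries. Calls need an adjusted p below 0.05 and a log2 fold change of at least 1 in size. Where a group had 0 counts, bounds use a floor of 3 counts over the group. Where it had 1 to 3 counts, ratios carry exact 95% intervals. Without molecular identifiers in the reads, both describe counting error alone. The edgeR fits and calls were tested on simulated counts with known changes, at a single setting of the spread between libraries. The other steps were not tested in this way. Alternatives were DESeq2 1.42.0, library size scaling, no low count filter, the replicate number as a block, only the groups compared, and leaving out each library.

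The 9 genes, the 40 pathway genes and the marker lists were chosen with earlier results of these data known. All 9 genes are named. Of the pathway genes, those named are Mat2a, Mat2b and Bhmt2, the 3 largest called rises and falls of a comparison described, and others where said. Some genes that this rule names are not reported here. Likeness names the 3 genes with the highest r. Same-numbered libraries did not deviate together (correlations from -0.029 to 0.029 within the comparisons made), so numbers were not treated as pairs. Promoters come from RefSeq.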

Additional observations from a re-analysis of the deposited data

Results flagged for a closer look

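In the first 2-step protocol, C6FAE-C6F(L), the only group of 4 libraries, 3 of 9 genes had 1 library far from the other 3. The measure is the gap of the extreme library to its nearest neighbour as a share of the group's range, and chance alone takes about 1 of 20 sets of values past the limit of Dixon's test. Hpd was high in replicate 1 (0.901), at 4.81 CPM against 0.344 to 0.785 CPM. Tdo2 was high in replicate 4 (0.909), at 8.76 CPM against 1.08 to 1.78 CPM. Bhmt had 2 counts in replicate 1 and 0 in the other 3, which gives a share of 1 by construction.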

How the results depend on the processing

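Of the log2 fold changes of the 9 genes, 423 kept their direction and side of the threshold under alternatives that keep all libraries, 8 gained a call, 7 lost it and 2 turned. When 1 library was left out, 499 kept both, 5 gained a call, 22 lost it and 11 turned. The cause was not tested unless given.

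Of the 9 genes, the 1 higher in C6FAE than in MEF became 2 with DESeq2, 3 with the replicate block and 2 with only the groups compared. With only the groups compared, 4 higher than MEF became 2 in both C6F(L) and C6FAE-C6F(L). In C6F(L) this was because fewer genes passed the filter, while in C6FAE-C6F(L) the filter accounts for Hgd only. With the block, 2 higher in C6FAE-C6F(L) than in C6F(L) became 4, and pathway genes lower there went from 4 to 8 and against MEF from 5 to 8. The 1 gene lower in C6F5UE-C6F(L)V than in C6FAE-C6F(L) became 0 with library size scaling, with the block and with only the groups compared, and 0 pathway genes became 1 with the block. With library size scaling, 2 pathway genes were higher in NSF-CiHeps than in pHeps instead of 0. With the block, Tdo2 in C6FAE-C6F(L) against C6FAE turned to -0.27 and Hpd against pHeps to 0.12. Replicate 4 of C6FAE-C6F(L) is alone in its block, so the block leaves it out, and the numbers do not pair the samples.

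Leaving out 1 library, the 9 genes gave 1 to 2 higher in C6FAE than in MEF and 0 to 4 higher in C6FAE-C6F(L) than in C6F(L). The 4 higher in C6F(L) than in MEF became 3 in every such setting. In C6F5UE-C6F(L)V they gave 1 to 2 lower than in pHeps, 0 to 1 lower than in MEF and 0 to 1 lower than in C6FAE-C6F(L). Pathway genes lower in C6FAE-C6F(L) were 5 to 8 against MEF and 3 to 8 against C6F(L). Those lower in C6F5UE-C6F(L)V than in C6FAE-C6F(L) were 0 to 1, and those higher than pHeps were 1 to 2 in C6FAE-C6F(L) and 0 to 1 in NSF-CiHeps. In C6FAE-C6F(L) against C6FAE, Hgd ran from -0.38 to 0.54 and Tdo2 from -0.26 to 1.25, and against pHeps Hpd ran from -1.65 to 0.26. In C6F5UE-C6F(L)V, Fah ran from -0.031 to 0.21 against pHeps and Tdo2 from -0.087 to 0.92 against MEF. Hal in NSF-CiHeps against C6F5UE-C6F(L)V ran from -0.13 to 1.05.

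With 9.18 M to 12.32 M counts a library, levels under about 1 CPM rest on few counts, and with 2 pHeps libraries each comparison with them rests on a thin estimate of spread.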
